A study of Mus musculus with 4 samples.

Results

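The clade B serpins described here are maspin (Serpinb5) and 8 of its paralogs: Serpinb1a, Serpinb2, Serpinb6a, Serpinb6b, Serpinb8, Serpinb9, Serpinb11 and Serpinb12. They were taken by gene name from the scanner files, which hold 10 probes for these 9 genes among 39429 gene probes for 30010 gene names. The genes were chosen with their ratios known, so their differences between genotypes are given below as a description, without a p-value. RNA of E15.5 ureters of NMRI mice was hybridised on 4 arrays, each carrying 1 control and 1 cKO RNA of the same sex. Control embryos had the genotype Trp63(dN-flox/?), with the other allele not specified and no cre listed. The cKO embryos carried Pax2-cre/+ together with Trp63(dN-flox/dN-flox), so that a Cre under the control of Pax2 deletes the ΔN form of the transcription factor p63. Both groups therefore carried a floxed allele, and cre is in the genotype of each cKO RNA but of none of the controls, so an effect of the transgene and loss of ΔNp63 cannot be told apart. Replicates 1 and 2 were female and replicates 3 and 4 male, and the cKO RNA carried AlexaFluor647 in replicates 1 and 3 and AlexaFluor555 in replicates 2 and 4. The RNA came from the whole ureter, that is urothelium, mesenchyme, vessels and blood cells together, and the number of embryos behind each RNA is not given in the labels.

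Serpins are protease inhibitors that present an exposed loop to a target protease and trap it by a large change of shape once the loop is cut. Clade B holds the members without a classical secretion signal, which act mostly inside cells. Maspin is unusual among them, since it does not inhibit proteases, and it is known from the basal cells of stratified and glandular epithelia and as a tumour suppressor. In the mouse the clade B genes lie in a cluster on chromosome 1, which holds 5 of the 9 genes (Serpinb5, Serpinb12, Serpinb11, Serpinb2 and Serpinb8), and a cluster on chromosome 13, which holds the other 4 (Serpinb1a, Serpinb6b, Serpinb9 and Serpinb6a). The p63 protein is the master regulator of basal cells, and it binds DNA as a member of the p53 family.

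The signal of each gene rests on a 60-base probe, and 4 stretches of 30 bases show what the probes of the genes with the clearest patterns read. The first bases of the Serpinb5, Serpinb6b and Serpinb9 probes are given because those genes had control and cKO levels that did not overlap. The last bases of the Serpinb8 probe are given because they are largely a GT repeat, marked in capitals.

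Serpinb5: ccaagtctcagggaacttgtctgtagtcgc
Serpinb6b: ccttcatcctctctgcagcaatactgggat
Serpinb9: ttccttcattgatgaacagtgatgtaaacg
Serpinb8: aTGTGTGTGTGTGTGcctcTGTGTGTGTGT

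In build mm9, the coordinates of the files, the Serpinb5 probe lies at chr1:108778585-108778644 on the plus strand and the Serpinb6b probe at chr13:33070776-33070835 on the plus strand. The Serpinb9 probe spans chr13:33109767-33109824 on the plus strand and the Serpinb8 probe chr1:109504865-109504924 on the plus strand. No annotation of this build was used, so the exon each probe reads was not analysed here. The longest run that the Serpinb5 probe shared with a probe of another clade B gene was 8 bases (Serpinb9d), and for Serpinb6b it was 7 bases (Serpinb9). The Serpinb6a probe differed from these, since it shared a run of 26 bases with a probe of Serpinb6c. Outside the clade, the Serpinb5 probe shared 14 bases or more with 2 probes of other genes, with a longest run of 15 bases (Ssr1). The Serpinb9 probe did so with 5 probes, with a longest run of 15 bases, and the Serpinb6b probe with 0.

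Maspin was far lower in the cKO ureters, Serpinb6b was higher, and 5 of the other tested members had a mean log2 ratio within 0.2 of 0. Serpinb9 lay between these, at 0.37, and was not called. Ratios near 0 were common, with 7726 of the 21517 genes tested between -0.1 and 0 and 7362 between 0 and 0.1. Of the 9 genes, 8 had a probe well above background on all 4 arrays in at least 1 genotype and were tested among 21517 genes (limma, Benjamini-Hochberg adjusted p under 0.05). Serpinb5 was the 1 member called lower, where 0.697% of all genes tested were called lower, and Serpinb6b was the 1 member called higher, where 0.497% of all genes were. In either direction 1.19% of all genes were called. Since the genes were chosen on this contrast, nothing is read from those counts. With the authors' deposited table of log2 ratios in place of these values, limma called neither gene. Leaving out replicate 4 brought the called members on the higher side from 1 to 2, with Serpinb9 as the addition, and it brought the calls over all genes from 150 to 853 lower and from 107 to 748 higher. Without replicate 2 these were 508 lower and 429 higher, and without replicate 1 the higher calls came to 172. A fit without 1 replicate has 1 residual degree of freedom, so its calls lean on the variance shared over all genes. Over the 8 members the median log2 ratio was 0.07, against -0.00024 over all genes tested. In whole-ureter RNA, a smaller number of cells of a type and less RNA per cell cannot be told apart, which holds for every ratio below.

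Serpinb5 encodes maspin. Its normalised log2 intensity in replicates 1 to 4 was 10.61, 10.38, 11.20 and 11.09 in the control RNAs and 8.20, 8.48, 8.73 and 8.47 in the cKO RNAs. All 4 control RNAs lay above all 4 cKO RNAs. The log2 ratios (cKO over control) came to -2.41, -1.89, -2.47 and -2.62 and averaged -2.35 ± 0.32 (SD, n = 4). This corresponds to a level 5.09-fold lower in the cKO RNAs. It was the lowest log2 ratio of all 21517 genes tested. The probe stayed above background in the cKO ureters, where 16 of 16 spots were well above background. Raw mean signals were 369, 291, 462 and 264 intensity units against 1366, 1410, 2117 and 2353 in the controls. These signals are not corrected for background or dye, and the 2 RNAs of an array carried different dyes, so no fold is read from them.

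Serpinb6b, a mouse paralog of Serpinb6a, moved the other way. Its log2 intensity was 11.54, 11.76, 11.89 and 11.92 in the control RNAs and 12.92, 12.98, 13.46 and 13.05 in the cKO RNAs. Each cKO RNA was above each control RNA. The log2 ratios were 1.38, 1.22, 1.57 and 1.13, with a mean of 1.32 ± 0.20 (SD, n = 4), or 2.50-fold higher, which ranked 17 from the top among all genes tested.

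Serpinb9 inhibits granzyme B and shields cytotoxic lymphocytes and other cells from it. Its log2 intensity was 9.66, 9.62, 9.76 and 9.92 in the control and 9.97, 10.17, 10.26 and 10.06 in the cKO RNAs. The groups did not overlap, but the gap was narrow, with the highest control (replicate 4) at 9.92 and the lowest cKO (replicate 1) at 9.97. The log2 ratios were 0.31, 0.55, 0.49 and 0.14, with a mean of 0.37 ± 0.18 (SD, n = 4), and the gene was not called. Without replicate 4 the mean was 0.48 and the gene was called, as given above. That fit had 1 residual degree of freedom and called 853 genes lower and 748 higher. Levels of the 2 genotypes did not overlap for 3 of the 8 tested members, and this was so for 6.38% of all genes tested. The log2 ratio had the same sign on all 4 arrays for 4 of the 8 tested members (Serpinb5, Serpinb6b, Serpinb9 and Serpinb1a), and for 15.3% of all genes tested. Nothing is read from these counts either.

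**Figure D1:**
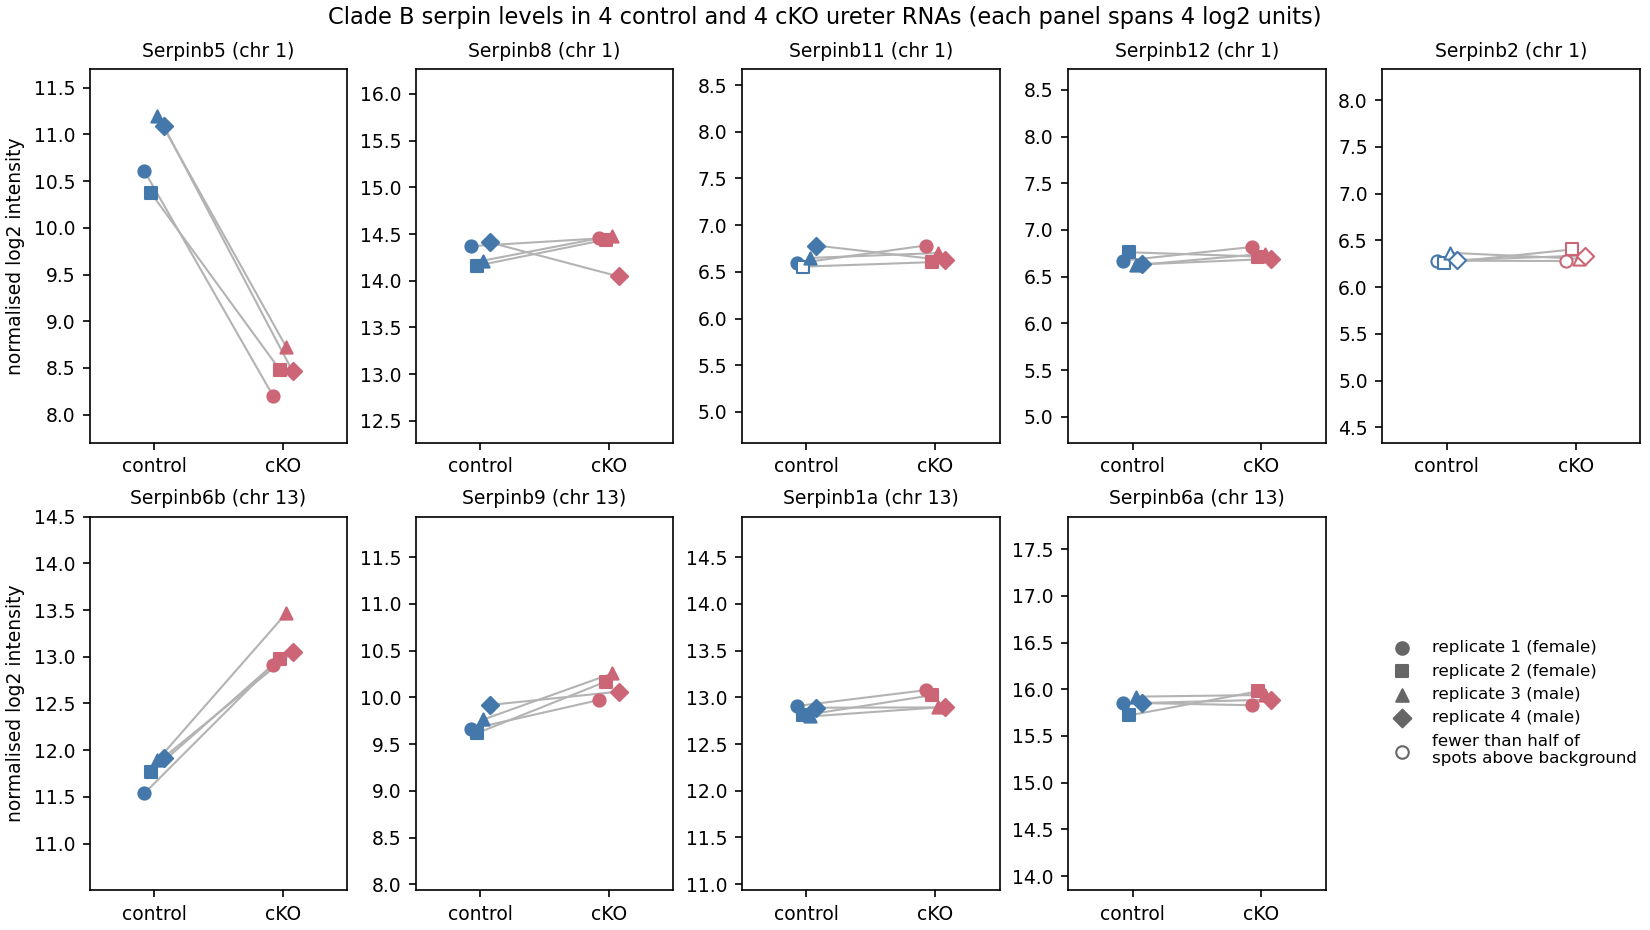
Normalised log2 intensity of the 9 clade B serpins in 4 control (blue) and 4 cKO (red) RNAs. Each panel spans 4 log2 units on its own range, lines join the 2 RNAs of an array, symbols mark the replicate, and open symbols mark RNAs in which most spots were not well above background. Serpinb5 falls from between 10.38 and 11.20 to between 8.20 and 8.73, Serpinb6b lies higher in every cKO RNA, and Serpinb2 has open symbols throughout.

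Serpinb1a inhibits neutrophil elastase, cathepsin G and proteinase 3. Its probe lies at chr13:32934693-32934752 on the minus strand. Its log2 intensity was 12.91, 12.81, 12.80 and 12.89 in the control and 13.08, 13.02, 12.89 and 12.89 in the cKO RNAs. The groups overlapped, because the cKO RNAs of replicates 3 and 4 were within the control range. The mean log2 ratio was 0.12 ± 0.09 (SD, n = 4), with a ratio close to 0 in replicate 4, and the gene was not called. Without replicate 2 the mean was 0.07.

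Serpinb6a, an inhibitor of cathepsin G, was read by a probe at chr13:34009796-34009855 on the minus strand. Its log2 intensity ran from 15.72 to 15.92 in the control and from 15.83 to 15.98 in the cKO RNAs. The groups overlapped, and the log2 ratios were -0.03, 0.26, 0.02 and 0.04, with a mean of 0.07 ± 0.13 (SD, n = 4). Without replicate 2 the mean was 0.02. Since this probe shares 26 bases with a Serpinb6c probe, signal from Serpinb6c could be read by it. The Serpinb6c probe chosen for the test had a mean log2 ratio of 0.06. On the same array, the Serpinb6b log2 ratio exceeded that of Serpinb6a by 1.41, 0.96, 1.56 and 1.09 in replicates 1 to 4. It exceeded that of Serpinb9 by 1.07, 0.66, 1.08 and 0.98. These gaps are differences between log2 ratios, not between levels.

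Serpinb8 inhibits furin. Its log2 intensity was 14.37, 14.16, 14.22 and 14.41 in the control and 14.45, 14.44, 14.48 and 14.05 in the cKO RNAs. The cKO RNA of replicate 4 stood below the other 3, and the groups overlapped. The log2 ratios were 0.08, 0.28, 0.27 and -0.36, with a mean of 0.07 ± 0.30 (SD, n = 4). Leaving out replicate 4 gave a mean of 0.23 and leaving out replicate 2 a mean of -0.09, neither called. The probe holds a run of 14 alternating G and T bases, as 84 of 39429 probes (0.213%) do at that length or longer, and it shares 14 bases or more with 108 probes of other genes. After these values were seen, the other 82 kept probes with such a run were set beside it. Their median log2 ratios in replicates 1 to 4 were 0.03, 0.36, 0.21 and -0.28, where the medians of all 28611 kept probes lay between -0.004 and 0.007. The repeat probes as a whole thus gave positive medians in replicates 2 and 3 and a negative one in replicate 4, the signs that Serpinb8 had there. The part of the repeat in the Serpinb8 values was not tested.

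**Figure D2:**
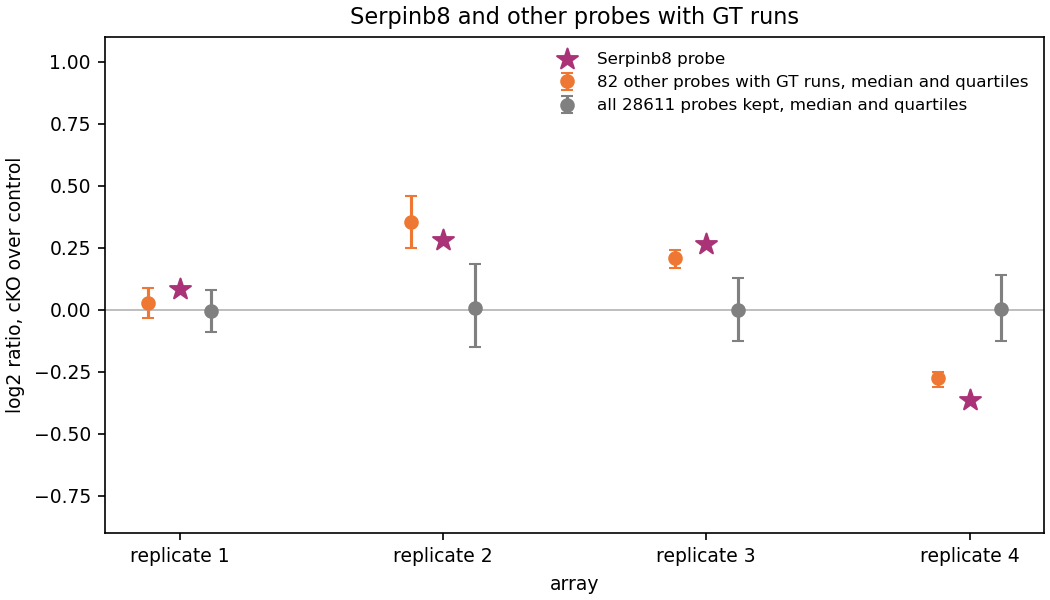
Log2 ratio of cKO over control on each of the 4 arrays for the Serpinb8 probe (stars), for 82 other probes with a run of at least 14 alternating G and T bases (orange, median and quartiles) and for all 28611 kept probes (grey, median and quartiles). The stars and the orange points are above 0 in replicates 2 and 3 and below 0 in replicate 4, while the grey medians stay near 0.

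Serpinb11 and Serpinb12 were dim. Serpinb11 had 11 of 16 control spots and 13 of 16 cKO spots well above background, and its log2 intensity ran from 6.56 to 6.78 in the control and from 6.60 to 6.78 in the cKO RNAs. Its mean log2 ratio was 0.03 ± 0.14 (SD, n = 4), and median centring of the arrays in place of loess turned it to -0.02. Serpinb12, an inhibitor of trypsin-like proteases, was read by a pair of overlapping probes, of which 1 was above background. Their shared run of 24 bases is in capitals, with the last 30 bases of the first probe and the first 30 bases of the second shown because the probes differ in detection although they overlap.

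Serpinb12 above background: gccactTTGGGAAACTTCTCTCCAGAATAG
Serpinb12 not above background: TTGGGAAACTTCTCTCCAGAATAGacagag

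The first, at chr1:108846143-108846202, had 13 of 16 spots well above background in each genotype and a mean log2 ratio of 0.07 ± 0.09 (SD, n = 4). With Agilent's processed signals in place of the corrected mean signals this was 0.27. The second, at chr1:108846179-108846238, had 0 of 16 control spots and 1 of 16 cKO spots above background and was not tested. Serpinb2, also known as plasminogen activator inhibitor 2, which inhibits urokinase, was not well above background on any array in either genotype. It had 1 of 16 control spots and 0 of 16 cKO spots above background, so no ratio is given for it. For these 3 genes the deposited value table lists 0 on all 4 arrays.

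**Figure D3:**
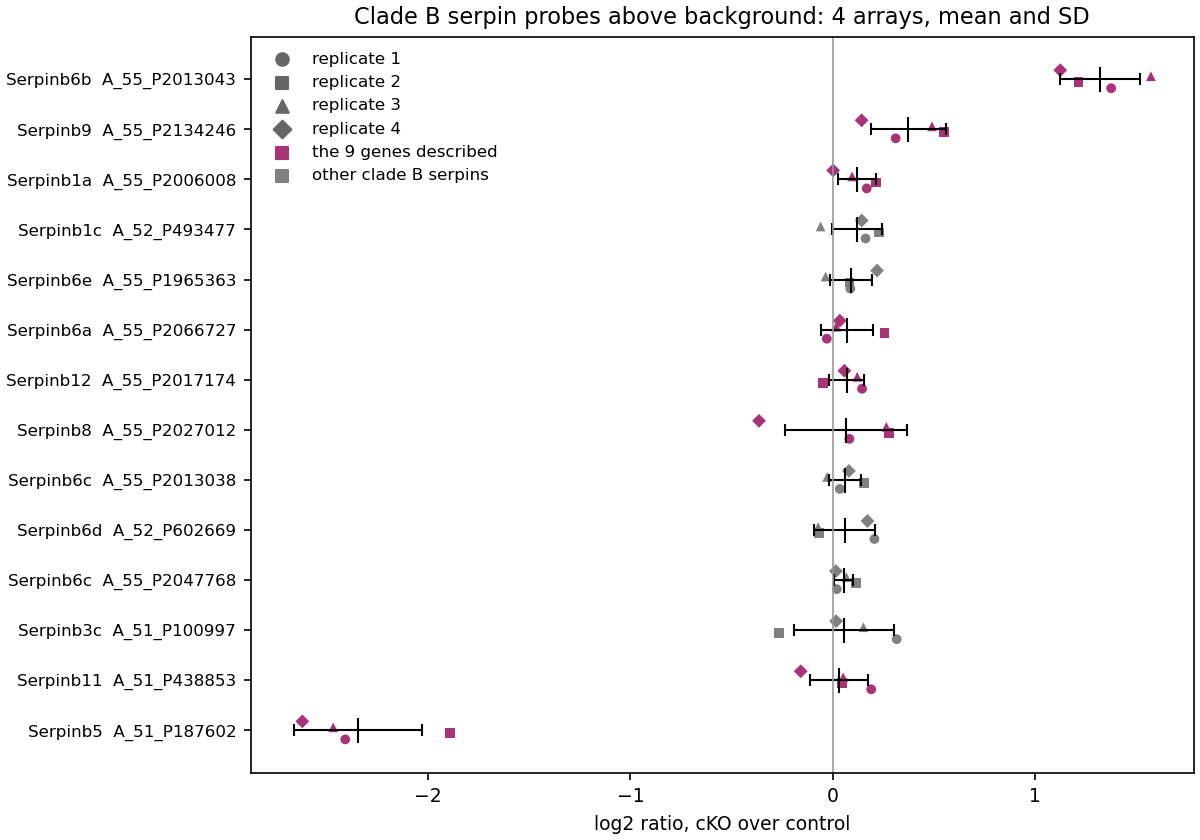
Log2 ratios of cKO over control on each of the 4 arrays, with the mean and SD, for the kept probes of the members and of other clade B serpins (grey). Serpinb5 lies between -2.62 and -1.89, Serpinb6b between 1.13 and 1.57, and the mean ratio of the other tested members between 0.03 and 0.37.

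The targeted gene was lower in every cKO RNA. Trp63, at chr16:25892012-25892071, had a log2 intensity of 11.98, 11.91, 12.17 and 12.20 in the control and 10.59, 10.72, 10.87 and 10.59 in the cKO RNAs. Its mean log2 ratio was -1.37 ± 0.18 (SD, n = 4; limma adjusted p = 0.003275). The other Trp63 probes had mean log2 ratios of -1.26, -0.81 and -0.02. Whether any of them reads the floxed part was not analysed here. Genes were then ranked by the likeness of their levels to those of Serpinb5 over the 8 RNAs (Pearson r, given as a description, since the RNAs fall into 2 groups by genotype). The highest was Trp63 itself, at 0.995, followed by Aldh1a7 (0.994), Edaradd (0.994), Tmprss13 (0.994) and Fermt1 (0.994). Edaradd is the adaptor of the ectodysplasin receptor, Tmprss13 a membrane serine protease and Fermt1 the integrin activator kindlin-1. Their mean log2 ratios were -1.55 for Aldh1a7, -1.06 for Edaradd, -1.12 for Tmprss13 and -1.41 for Fermt1. Over the 4 log2 ratios alone, 0 of the 5 were again among the top 5. With Spearman's rho 1 of the 5 was (Aldh1a7), and with Agilent's processed signals 1 was (Fermt1). Trp63 was not among the top 5 in any of these alternatives, so its first place depends on the measure used. Among the members, r to Serpinb5 was -0.90 for Serpinb6b and ran from -0.74 to -0.12 for the other tested genes.

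**Figure D4:**
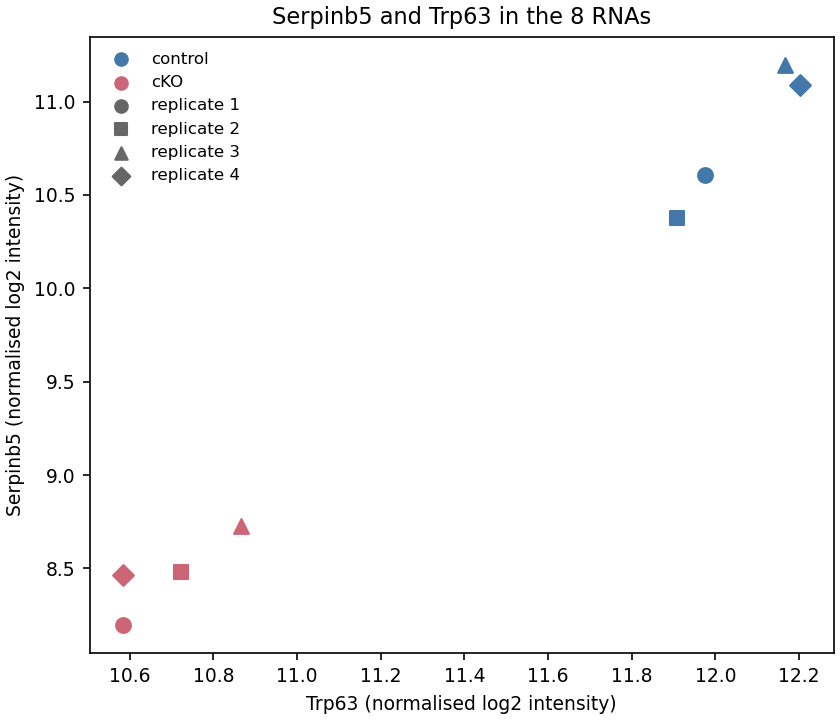
Normalised log2 intensity of Serpinb5 against that of Trp63 in the 8 RNAs, with control RNAs in blue and cKO RNAs in red. The control RNAs lie at the upper right (Trp63 between 11.91 and 12.20) and the cKO RNAs at the lower left (Trp63 between 10.59 and 10.87).

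The cell types that the ureter holds were read from marker lists. Of 10 urothelial basal markers, 9 were called lower (limma), where 0.697% of all genes tested were, and the median log2 ratio was -1.28. The list was chosen with earlier results of these data known, so nothing is read from this count. The targeted gene Trp63 is in this list, among the lower genes and in the summed level below. As the gene altered in the cKO embryos it is not an independent marker here, and the cause of its lower level was not tested. Other examples are Dapl1 at -2.12, the basal keratin Krt5 at -1.87, P-cadherin Cdh3 at -1.66 and the hemidesmosome integrin Itgb4 at -1.45. The collagen Col17a1, also of the hemidesmosome, was the exception, at -0.11. The summed linear level of these 10 genes was 23520 to 31200 in the control and 9530 to 11310 in the cKO RNAs, so it moved with Serpinb5, and its part in the Serpinb5 ratio was not tested. Of 5 superficial markers, the keratin Krt20 was called higher (1.92) and the uroplakin Upk2 lower (-0.54). The uroplakins Upk1a (-0.0061), Upk1b (-0.18) and Upk3a (0.0055) were not called, and the list median was -0.0061. The summed level of the superficial markers was 252700 to 322600 in the control and 241400 to 288900 in the cKO RNAs. Of 5 general epithelial markers the keratin Krt18 was called higher (0.50) and 0 were called lower (limma), with 2 higher and 1 lower at an unadjusted p under 0.05. The keratin Krt8 had 0.37, E-cadherin Cdh1 -0.40, and Epcam and Krt19 -0.10 each, for a median of -0.10. The summed level, in which bright genes weigh most, was 377400 to 423100 in the control and 453300 to 481900 in the cKO RNAs. The sum was higher in the cKO RNAs, as Serpinb6b was, while 3 of the 5 markers had negative ratios, and the part of the epithelial list in the Serpinb6b ratio was not tested.

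Because Serpinb1a, Serpinb6b and Serpinb9 are also known from leukocytes, leukocyte lists are given first, followed by endothelial and mesenchymal lists. Of 8 macrophage and leukocyte markers 0 were called by limma and 3 were lower at an unadjusted p under 0.05, and their summed level was 43220 to 45770 in the control and 40070 to 41770 in the cKO RNAs, which did not overlap. Of 5 tested mast cell and neutrophil markers 0 were called and 1 was lower at an unadjusted p under 0.05, with sums of 8072 to 12550 and 6781 to 10180. The median log2 ratio of this list was -0.13, with 4 ratios negative and 1 positive (0.05). The gene with the positive mean is the brightest and weighs most in the sums. Its log2 ratio was positive where the cKO RNA carried AlexaFluor647 and negative where it carried AlexaFluor555. The ratio of the summed levels, cKO over control, ran from 0.889 to 0.967 over the 4 arrays for the macrophage and leukocyte list and from 0.811 to 1.22 for the mast cell and neutrophil list. The part of these lists in the ratios of Serpinb1a, Serpinb6b and Serpinb9 was not tested. Of 5 endothelial markers 0 were called, with 0 at an unadjusted p under 0.05, and the sums were 55930 to 61090 in the control and 62980 to 65930 in the cKO RNAs, again without overlap. The part of the endothelial list in the ratios of Serpinb6b and Serpinb9 was not tested. Of 6 mesenchymal and smooth muscle markers 0 were called, again with 0 at an unadjusted p under 0.05, and the sums overlapped.

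The remaining clade B serpins were mostly dim. Of 18 further genes of the clade 5 were tested, and 0 were called by limma, with 0 at an unadjusted p under 0.05. Their mean log2 ratios lay between 0.06 and 0.12, with Serpinb1c at 0.12, Serpinb6e at 0.09 and Serpinb3c at 0.06. Serpins of other clades gave 0 calls of 14 tested (limma), with 3 lower at an unadjusted p under 0.05, and a median log2 ratio of -0.10. Examples are Serpina1a, an alpha-1-antitrypsin, with log2 ratios of -0.98, -1.43, -0.40 and -0.33 in replicates 1 to 4, and Serpina6, the corticosteroid-binding globulin, with -0.56, -1.34, -0.21 and -0.21. In both, replicate 2 was the lowest and the female arrays lay below the male ones, and the cKO-by-sex term called neither (limma adjusted p = 1 for each, unadjusted p = 0.001809 for Serpina1a and 0.006034 for Serpina6). Proteases and receptors tied to clade B serpins gave 0 calls of 10 tested (limma). At an unadjusted p under 0.05, 2 were lower and 1 was higher. The urokinase receptor Plaur had a mean of 0.40 ± 0.21, the mast cell chymase Cma1 of -0.54 ± 0.39 and cathepsin S (Ctss) of -0.22 ± 0.09. Granzyme B (Gzmb), the target of Serpinb9, was well above background in 2 of 4 control and 2 of 4 cKO RNAs and was not tested.

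The ratios were also placed along the genome. On chromosome 1 the nearest other tested gene before the Serpinb5 probe, Vps4b at 110.4 kb, had a mean log2 ratio of 0.06 ± 0.26 (SD, n = 4), and the nearest clade B gene after it, Serpinb12 at 67.6 kb, had 0.07. Serpinb8, 726.3 kb after it, had 0.07 as well. On chromosome 13 Serpinb1c, 94.9 kb before the Serpinb6b probe, had 0.12 and Serpinb9, 39 kb after it, had 0.37. Of 13 tested genes that are not serpins and lie within 500 kb of a member, 0 were called (limma), 1 was higher at an unadjusted p under 0.05 (Bphl, 0.20), and the range was -0.18 to 0.20. Within both clusters, then, 1 gene each lay past a log2 ratio of 1 in size. Serpinb5 and Serpinb6b were chosen with their ratios known, and ratios near 0 were common over all genes, as given above. Nothing is therefore read from this about the clusters.

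**Figure D5:**
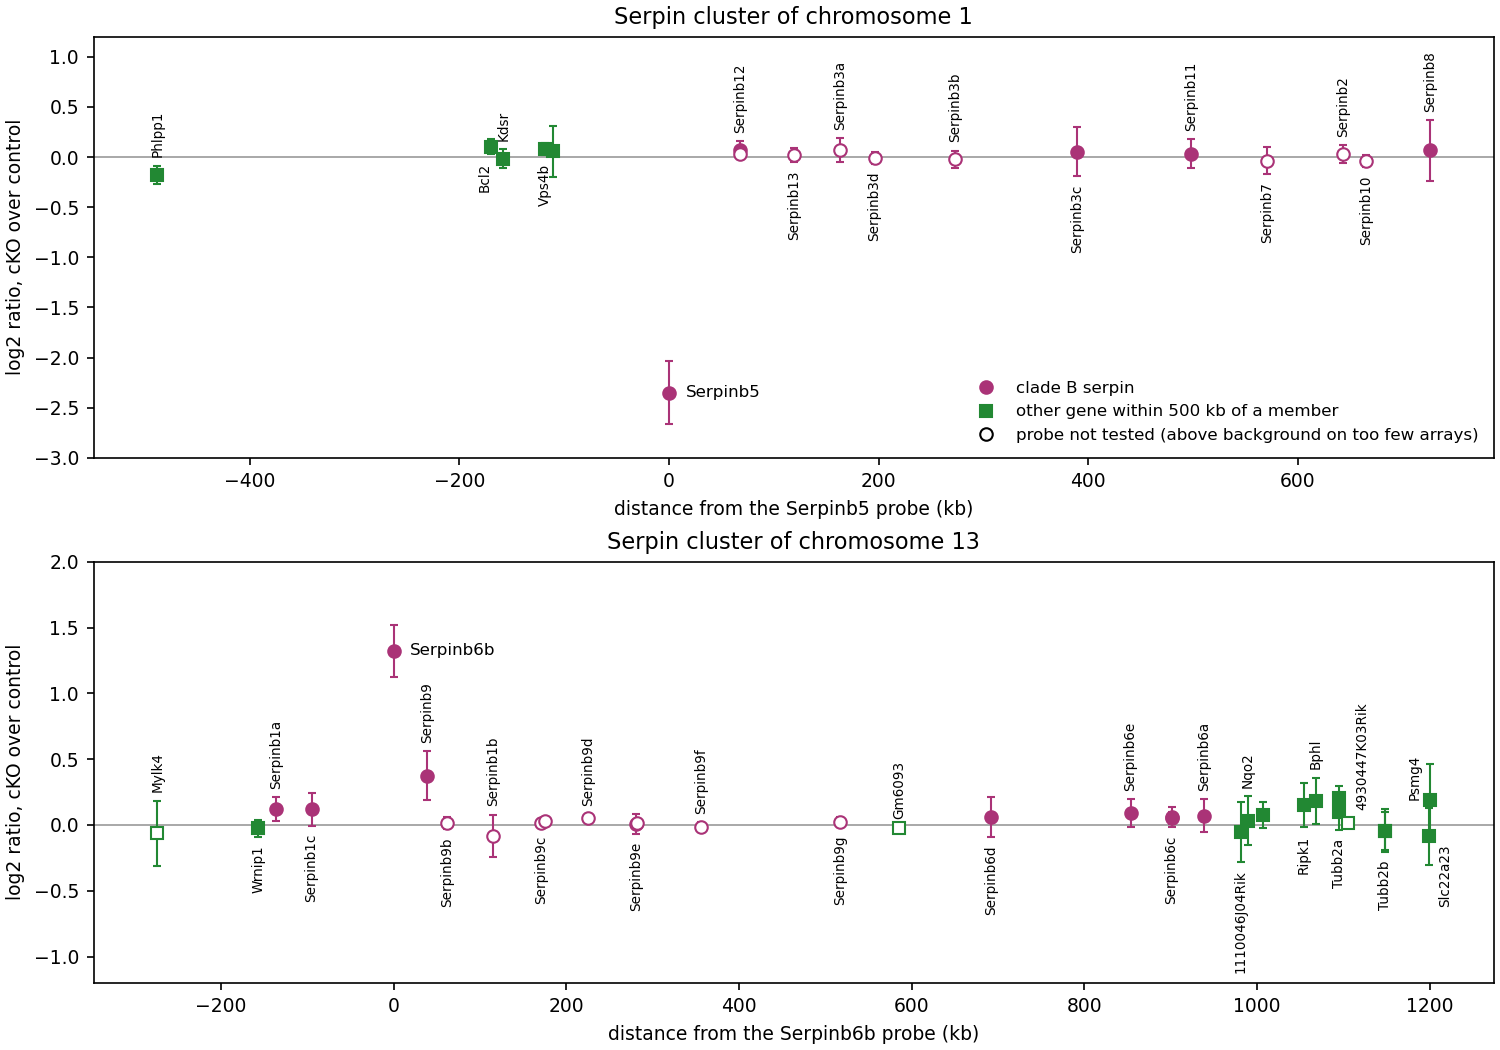
Mean log2 ratio of cKO over control (points) with SD of 4 arrays (bars) for the probes of the serpin clusters on chromosome 1 and chromosome 13, by distance in kb from the Serpinb5 and the Serpinb6b probe. Circles are clade B serpins, squares other genes within 500 kb of a member, and open symbols probes that were not tested because they were not well above background on all 4 arrays in either genotype. Serpinb5 at -2.35 and Serpinb6b at 1.32 stand apart from their neighbours, which lie between -0.18 and 0.37.

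The promoters of both genes are shown because p63 binds p53 family sites, whose core is often CATG. They are the 250 bases before the transcription start from RefSeq, build GRCm38.p6, which matched 8 of the 9 genes (11 promoters, and Serpinb1a had none in the table). CATG, which reads the same on both strands, is in capitals.

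Serpinb5: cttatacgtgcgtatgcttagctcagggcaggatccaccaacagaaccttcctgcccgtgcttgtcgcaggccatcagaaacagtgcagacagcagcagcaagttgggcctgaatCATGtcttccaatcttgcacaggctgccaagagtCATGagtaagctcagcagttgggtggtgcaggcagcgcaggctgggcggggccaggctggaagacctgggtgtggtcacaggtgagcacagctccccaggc
Serpinb6b: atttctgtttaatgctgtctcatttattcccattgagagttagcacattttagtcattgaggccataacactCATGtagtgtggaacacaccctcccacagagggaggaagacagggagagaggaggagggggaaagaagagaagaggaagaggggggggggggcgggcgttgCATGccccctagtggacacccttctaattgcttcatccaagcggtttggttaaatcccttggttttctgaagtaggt

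The Serpinb5 promoter, chr1:106860925-106861174 on the plus strand, held CATG at 135 and 101 bases before the start. The Serpinb6b promoter, chr13:32965011-32965260 on the plus strand, held it at 178 and 77 bases before the start. CATG was in 6 of the 11 member promoters and in 53.9% of all 32851 promoters, and 2 or more were in 21.3%. A p53 family half-site, searched on both strands, was in 0 of the 11 and in 7.13% of all. These are matches of letters in this window, not binding sites.

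Whether the genotype difference depended on sex was not used to choose the genes and was tested with a cKO-by-sex term (limma). It called 0 of 8 members, with 0 at an unadjusted p under 0.05, where 0.0697% of all genes were called. For Serpinb5 the mean log2 ratio was -2.15 in the 2 female and -2.55 in the 2 male arrays. The difference, male minus female, was -0.40 (SE 0.27, 95% interval -0.92 to 0.13, limma adjusted p = 1). For Serpinb6b the difference was 0.05 (interval -0.48 to 0.58) and for Serpinb8 -0.23 (interval -0.76 to 0.30). With 1 residual degree of freedom the fit gave all genes the same variance, so these intervals are equally wide for each gene and do not show that the sexes act alike. The control level of Serpinb5 was 10.49 on average in the female and 11.14 in the male RNAs, and the cKO level was 8.34 and 8.60. The dye effect, tested in the main fit with limma, called 0 of 8 members, with 0 at an unadjusted p under 0.05, and 0% of all genes. At an unadjusted p under 0.05 it gave 147 genes lower and 283 higher among all.

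Median signals lay between 382 and 416 for the green dye and between 519 and 617 for the red, 71.8% to 77.0% of gene spots were well above background, and no spot was saturated. Ratios of arrays 2 and 4 had a Pearson r of -0.06 across genes and those of arrays 2 and 3 of 0.62, where genes are not independent replicates. The number of arrays limits the precision of every value.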

How the data were processed

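The deposited scanner files hold an intensity per spot and channel. The software was Agilent Feature Extraction 10.7.3.1, per the submitters' processing notes. Other deposited columns are flags for background, saturation and nonuniform spots. The deposited value table holds log2 ratios of cKO over control, centred on 0. Between 32.2% and 32.6% of its values are exact zeros, and no source used here says how the authors set them. Mean signals were corrected with normexp (offset 50), normalised by loess with control spots at weight 0, and averaged over the 4 spots of a probe, leaving out nonuniform spots (17 to 33 per array). Probes entered the test (28611 of them) if, in the control or in the cKO RNA, the share of spots well above background reached 0.5 on each of the 4 arrays. A gene was represented by its brightest kept probe. Levels are log2 intensities after loess and Aquantile normalisation. Ratios went into a limma model (version 3.58.1, R 4.3.3) with a dye term. The p-values are two-sided and adjusted by Benjamini-Hochberg over 21517 genes. Replicate numbers name arrays, and each array is a pair. Nothing says that RNAs came from separate litters, so p-values measure only the spread between these samples. All arrays lie on 1 slide with 1 scan day. Of the probes, 30385 were named by symbol, 1343 through an accession and 7701 as in the files. The genes, lists and likeness rule were chosen with earlier results of these data known. Named genes are the members, Trp63, the 5 genes most like Serpinb5, and the called and up to 3 further members of each list. The fit was tested on simulated data. Not every listed gene is reported here.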

Additional observations from a re-analysis of the deposited data

Results flagged for a closer look

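The cKO level of Serpinb8 in replicate 4, a log2 intensity of 14.046, stood apart from the other 3, which lay between 14.44 and 14.482. The gap to the nearest was a share of 0.903 of the whole range, above Dixon's critical value for 4 samples. This was 1 of 30 groups of 4 values checked, and chance flags about 5% of such groups. The groups were the log2 ratios, control levels and cKO levels of the 10 member probes, so they are not independent. In the same replicate the 82 other kept probes with a GT run had a median log2 ratio of -0.28, and their part in the Serpinb8 value was not tested.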

How the results depend on the processing

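Changing only the filter on dim probes, the probes tested, the pairing, or the dye and sex terms left the array ratios unchanged. In those alternatives the mean log2 ratio could not move and stayed at -2.35 for Serpinb5 and 1.32 for Serpinb6b. Only Agilent's processed signals, median centring, the deposited value table and leaving out 1 replicate could move it. Over all 13 alternatives the mean ran from -2.62 to -2.17 for Serpinb5 and from 1.27 to 1.38 for Serpinb6b. Both were called in each of them except with the deposited value table. That table gave 0 members lower and 0 higher (limma; at an unadjusted p under 0.05, 1 lower and 2 higher). Over all genes it gave 0 lower and 1 higher (957 and 827 unadjusted). Serpinb5 and Serpinb6b were chosen on this contrast, so nothing is read from their calls in any alternative. Leaving out 1 replicate gave 1 member lower, 1 to 2 members higher, 155 to 853 genes lower and 128 to 748 genes higher. Over all genes, lower and higher calls were 55 and 31 with no filter on dim probes, 266 and 194 with no dye term, 309 and 233 with a sex term, and 169 higher with 8 RNAs without the pairing. Of the 5 genes most like Serpinb5, 1 was shared with Agilent's processed signals (Fermt1), 1 with Spearman's rho (Aldh1a7) and 0 with the 4 log2 ratios. Trp63 was not shared with any of these. The cause of these changes was not tested. The main values are paired, since each array sets 1 cKO RNA against 1 control RNA, and the pairing was dropped only in the alternative with 8 RNAs. Dim signal limits Serpinb2, Serpinb11 and Serpinb12, whose ratios carry little information.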
